A study of Mus musculus with 6 samples.

Results

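Collagen genes were followed in hypothalamus RNA of aged and young mice. Members were all rows of the deposited count table whose symbol has the form of a collagen chain gene (Col, a type number, the letter a and a chain number), which gave 44 of 18228 genes. They were divided into 11 fibrillar genes (types I, II, III, V, XI, XXIV and XXVII), 6 basement membrane genes (type IV) and 27 genes of other types. The aged group held 3 mice aged 22 months and the young group 3 mice aged 12 weeks, drawn at random from 5 of each age after behavioural testing. All mice had free food and water and a regular light cycle, and were anaesthetised with sodium pentobarbital before death; the labels name no strain, sex, genotype or batch.

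Collagens are secreted or membrane proteins in which 3 alpha chains wind around each other into a triple helix, with a glycine at each turn of its repeat. Fibrillar collagens assemble into the cables of connective tissue, which in the brain lie mainly in the meninges and around larger vessels. Type IV collagen forms the sheet-like network of basement membranes along brain capillaries, and many of the remaining types sit on fibrils, anchor membranes or, as transmembrane proteins, are made by neurons and glia.

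The libraries held 17208291 to 18884403 counted reads, of which collagen genes took 16064 to 18142 reads in aged and 12722 to 15954 reads in young libraries. The 4 Y-linked genes Ddx3y, Eif2s3y, Kdm5d and Uty summed to 184 to 203 CPM (read counts scaled to a common library size with TMM) in aged libraries and 1.38 to 1.88 CPM in young libraries. Y-linked expression thus divided the libraries exactly as age did. By these genes the aged mice read as male and the young mice as female, although the labels give no sex. Age and sex cannot be told apart in any comparison here. The 10 hypothalamus markers (Avp, Oxt, Hcrt and others) were detected in both groups. Summed, they stood at 1246 to 1354 CPM in aged and 1297 to 1477 CPM in young libraries. The sum hides moves in both directions. In edgeR 1 of the 10 passed as higher and 1 as lower in aged libraries (20%, beside 6.86% of all tested genes). An unadjusted p under 0.05 was reached by 4 upward and 4 downward, beside 26.2% of all tested genes in either direction. The summed markers of cortex and hippocampus stood at 115 to 135 CPM in aged libraries and at 138, 350.5 and 188 CPM in young replicates 1, 2 and 3. Midbrain dopamine markers summed to 125 to 178 CPM in aged libraries and to 168, 295 and 376 CPM in young replicates 1, 2 and 3, and thalamus and habenula markers to 155 to 172 CPM in aged libraries and to 252, 359 and 164 CPM in the young ones. Of 7 tested genes in each of these 3 region lists, 2, 3 and 2 fell in edgeR (28.6%, 42.9% and 28.6%, beside 3.64% of all tested genes). In DESeq2 2, 4 and 2 fell, and in limma-voom 1, 0 and 1. The part of these regions in the collagen results was not tested. Young replicate 2 was the lowest library for 22 of 43 tested collagen genes (51.2%), while it was the lowest for 18.3% of all tested genes, and the log2 fold change of 20 of 43 collagen genes moved by over 1.5 times without it; those values are given beside the genes.

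Of the 44 collagen genes, 43 had enough reads to be tested and 4 passed (edgeR quasi-likelihood test, Benjamini-Hochberg adjusted p under 0.05 over 14702 genes). These were Col3a1 and Col1a1, both fibrillar and lower in aged hypothalamus, and Col19a1 and Col23a1, of other types and higher in aged hypothalamus. The share of members that passed was 9.30%, near the 6.86% of all tested genes. By direction, 4.65% of members were higher, beside 3.22% of all genes, and 4.65% were lower, beside 3.64%. At an unadjusted p under 0.05 there were 17 members (39.5%, beside 26.2% of all genes), 11 of them higher and 6 lower. Libraries of the age groups did not overlap for 15 members (34.9%, beside 31.7% of all genes), with 11 higher (15.5% of all genes) and 4 lower (16.2% of all genes) in aged libraries. The median log2 fold change of tested members was 0.17, beside -0.00348 for all tested genes, and 0.09 without young replicate 2. Over all genes, 474 were higher and 535 lower; scaling by total counts only gave 627 and 446, and log2(FPKM + 1) gave 616 and 293. The collagen counts were 2 and 2 with total counts only, and 0 and 2 on log2(FPKM + 1). Without single libraries, 0 to 2 collagen genes were higher and 2 or 3 were lower.

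**Figure D1:**
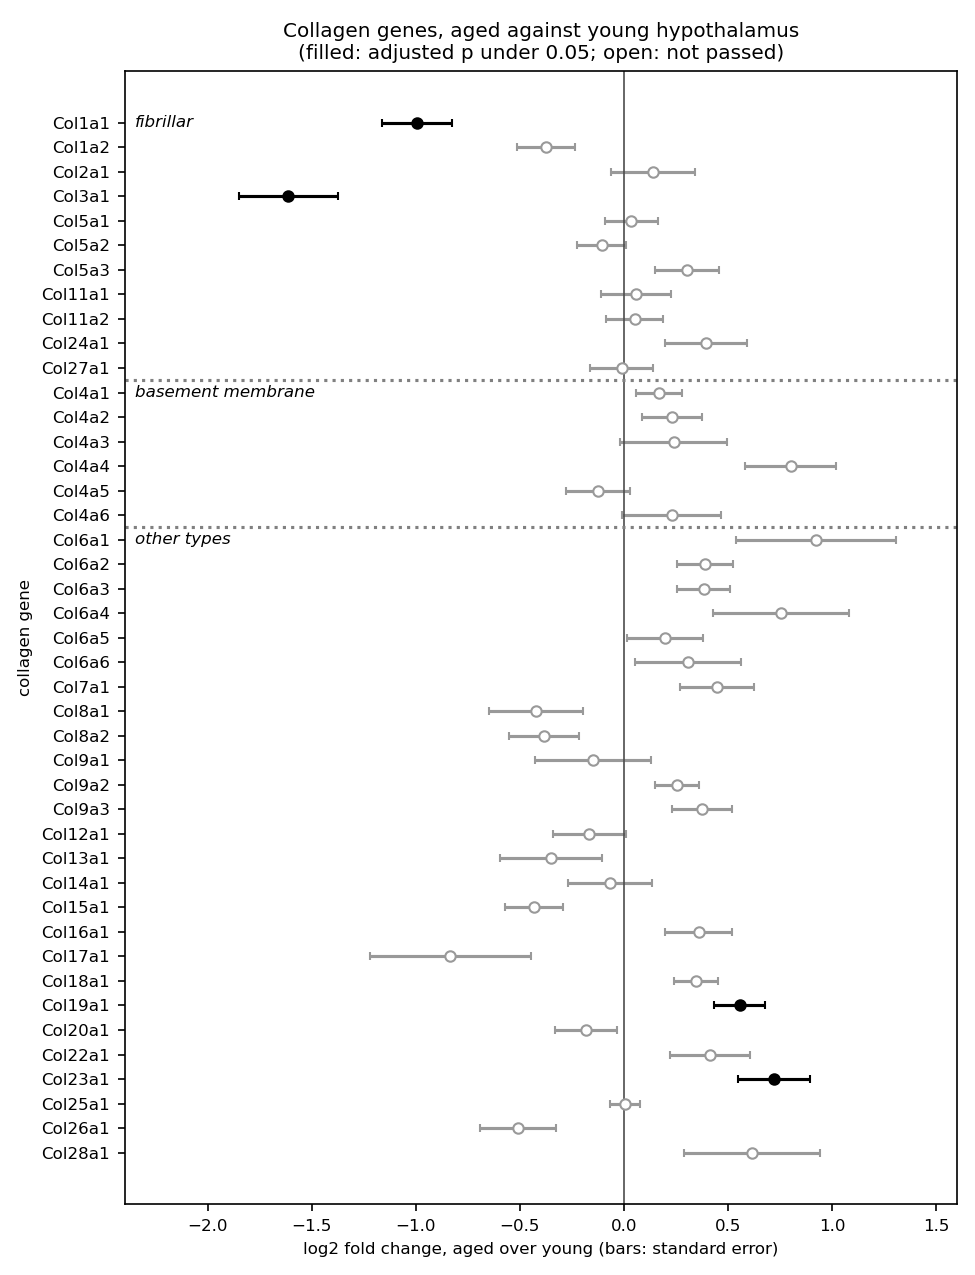
Log2 fold change of each of the 43 tested collagen genes, aged over young (x axis), with standard errors as bars and genes grouped by class (y axis). Filled points passed the test: Col1a1 and Col3a1 lie left of 0, at -0.99 and -1.61, and Col19a1 and Col23a1 right of 0, at 0.56 and 0.72.

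Of 11 fibrillar genes, Col3a1 and Col1a1 fell in aged hypothalamus, 0 rose and 9 did not pass (0 rose in DESeq2, limma-voom and log2(FPKM + 1) too, and 0 had an unadjusted p under 0.05 upward). The share that fell was 18.2% of 11 genes, beside 3.64% of all tested genes. Col3a1 encodes the chain of type III collagen, a homotrimer of pliable tissues such as vessel walls. It had 22, 18 and 12 reads in aged libraries and 52, 46 and 56 reads in young libraries. As normalised levels these were 1.23, 0.935 and 0.692 CPM in aged libraries, against 3.05, 2.64 and 3.12 CPM in young libraries. All aged libraries lay below all young libraries, with means of 0.953 ± 0.271 and 2.94 ± 0.255 CPM (SD, n = 3 each). The log2 fold change was -1.61 ± 0.24 (SE, edgeR adjusted p = 0.00818), the largest in size among the 43 tested collagen genes in this fit. Its low read number limits the precision of the level in each library.

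Col1a1 encodes the major chain of type I collagen, the main collagen of dura, skin and bone. Its level was 4.71, 4.57 and 3.06 CPM in aged libraries, against 8.09, 8.04 and 8.51 CPM in young libraries. Again the groups did not overlap, and the young libraries lay close to each other. The log2 fold change was -0.99 ± 0.17 (SE, edgeR adjusted p = 0.0133). Both Col3a1 and Col1a1 passed in all 18 alternative analyses, with adjusted p of at most 0.042 and 0.0468. Col1a2, the partner chain of Col1a1 in type I collagen, stood at 15.4, 10.6 and 11.5 CPM in aged libraries and at 15.8, 14.99 and 17.8 CPM in young libraries. Here the groups overlapped in range, since aged replicate 1 exceeded young replicate 2, and the log2 fold change of -0.38 ± 0.14 did not pass (edgeR adjusted p = 0.129).

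**Figure D2:**
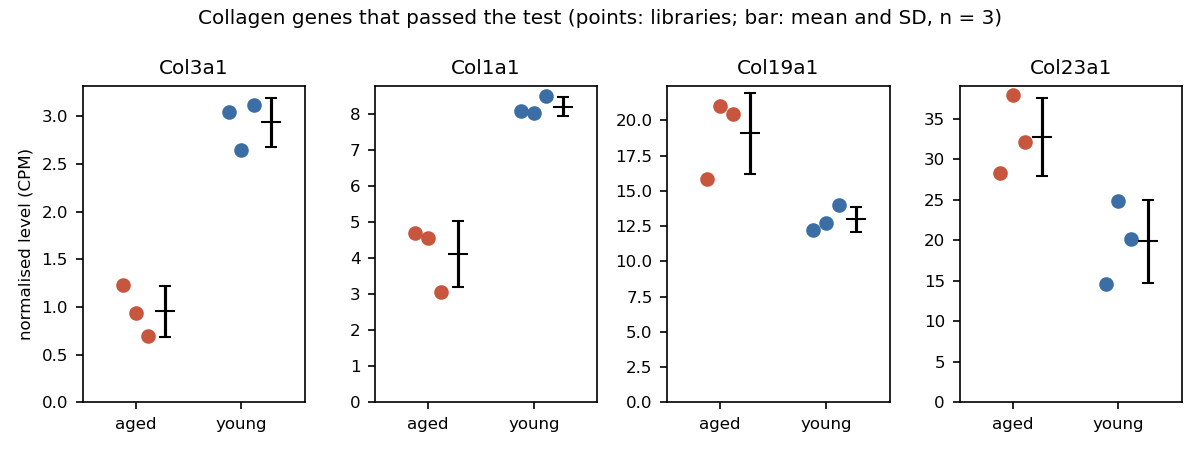
Normalised level in CPM (y axis, from 0) of the 4 collagen genes that passed, with points for the 3 aged and 3 young libraries and bars for mean and SD. In each panel the groups are separate: Col3a1 and Col1a1 are lower in all aged libraries, Col19a1 and Col23a1 are higher.

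Markers of cells that make fibrillar collagen are given beside the falls of Col3a1 and Col1a1. Of 12 fibroblast markers, none of which is at 0, 9 were tested; Fbln1, Igf2 and Slc6a13 fell, 0 rose and 6 did not pass in edgeR (33.3% passed, beside 6.86% of all tested genes; 0 rose in DESeq2 and limma-voom too, and 0 had an unadjusted p under 0.05 upward). Their summed level was 60.5 to 70.8 CPM in aged and 76.1 to 92.3 CPM in young libraries. Dcn and Lum, proteoglycans that define fibroblasts, had log2 fold changes of 0.00 ± 0.20 and -0.19 ± 0.29 and did not pass. Of 12 pericyte and smooth muscle markers, all tested, Pdgfrb and Vtn fell, Cnn1 rose and 9 did not pass in edgeR (3 of 12 passed, beside 6.86% of all tested genes), while DESeq2 had 5 lower and 1 higher. Their summed level was 197 to 228 CPM in aged and 270.4 to 319 CPM in young libraries. Falling markers were not particular to cells that make fibrillar collagen. In edgeR 4 of 10 astrocyte markers (40%) and 3 of 10 oligodendrocyte precursor markers (30%) fell, and 0 rose. Of 10 microglia markers 4 rose and 1 fell. Of 10 oligodendrocyte markers 1 fell, and of 10 neuron, 10 ependymal and 7 choroid plexus markers 0 passed. The part of fibroblasts, pericytes and smooth muscle cells in the Col3a1 and Col1a1 results was not tested. In bulk tissue fewer cells of a type and less RNA per cell cannot be told apart.

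The remaining 8 fibrillar genes did not pass either. Per gene length, Col11a1 and Col11a2, chains of type XI collagen, which seeds and limits the width of fibrils, were the most abundant fibrillar genes. Col11a1 stood at 62.6, 66.5 and 63.7 CPM in aged libraries and at 73.02, 42.1 and 70.1 CPM in young libraries. Col11a2 followed with 40.7, 37.4 and 37.3 CPM in aged libraries and 44.95, 28.7 and 37.7 CPM in young libraries. For both, young replicate 2 was the lowest and young replicate 1 the highest library, so the aged libraries lay inside the young range. Their log2 fold changes were 0.06 ± 0.17 and 0.05 ± 0.14, and they were -0.15 and -0.10 without young replicate 2.

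Type V collagen, which is incorporated into type I fibrils, did not pass for any of its chains. Col5a1, Col5a2 and Col5a3 had log2 fold changes of 0.04 ± 0.13, -0.11 ± 0.12 and 0.30 ± 0.15. Col2a1, the cartilage collagen, was at 0.14 ± 0.20 on the same scale, Col24a1 at 0.39 ± 0.20 and Col27a1 at -0.01 ± 0.15. Without young replicate 2 the log2 fold changes were 0.12 for Col5a1, -0.20 for Col5a2, 0.16 for Col5a3, -0.08 for Col2a1, 0.18 for Col24a1 and -0.14 for Col27a1. Of these, Col24a1 was higher in every aged library (9.53 to 11.9 CPM) than in every young library (5.34 to 9.23 CPM), without passing (edgeR adjusted p = 0.238). Summed over the 11 fibrillar genes, the level was 193, 184 and 183 CPM in aged libraries and 209, 146 and 207 CPM in young libraries, a difference within the spread of the young libraries. The fibrillar median log2 fold change was 0.04, and -0.14 without young replicate 2.

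The sequence before the start of the collagen genes that passed is shown for Col3a1, Col19a1 and Col23a1, the ones matched by symbol, and for Col1a2, the partner chain of Col1a1, to set their CG content side by side. Each line gives the 250 bases before the annotated start, 5′ to 3′ on the strand of the gene, with every CG dinucleotide in capitals (RefSeq, build GRCm38.p6; the count table was made on GRCm39). The windows are chr1:45311288-45311537 on the plus strand for Col3a1, chr6:4505368-4505617 on the plus strand for Col1a2, chr1:24587438-24587687 on the minus strand for Col19a1 and chr11:51289670-51289919 on the plus strand for Col23a1.
Col3a1: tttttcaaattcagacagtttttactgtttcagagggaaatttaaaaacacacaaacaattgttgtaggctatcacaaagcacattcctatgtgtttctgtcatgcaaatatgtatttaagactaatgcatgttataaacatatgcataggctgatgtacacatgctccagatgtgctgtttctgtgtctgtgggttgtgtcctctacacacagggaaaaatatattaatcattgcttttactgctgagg
Col1a2: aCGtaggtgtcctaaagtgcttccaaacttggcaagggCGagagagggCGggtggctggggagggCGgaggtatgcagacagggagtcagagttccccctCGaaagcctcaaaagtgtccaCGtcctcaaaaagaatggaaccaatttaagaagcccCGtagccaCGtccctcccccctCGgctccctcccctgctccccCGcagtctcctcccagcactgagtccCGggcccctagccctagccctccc
Col19a1: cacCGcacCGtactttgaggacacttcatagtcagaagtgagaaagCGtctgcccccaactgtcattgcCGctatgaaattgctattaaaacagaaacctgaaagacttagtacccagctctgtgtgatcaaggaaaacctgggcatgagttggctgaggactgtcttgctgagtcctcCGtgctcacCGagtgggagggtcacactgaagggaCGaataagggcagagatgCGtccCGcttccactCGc
Col23a1: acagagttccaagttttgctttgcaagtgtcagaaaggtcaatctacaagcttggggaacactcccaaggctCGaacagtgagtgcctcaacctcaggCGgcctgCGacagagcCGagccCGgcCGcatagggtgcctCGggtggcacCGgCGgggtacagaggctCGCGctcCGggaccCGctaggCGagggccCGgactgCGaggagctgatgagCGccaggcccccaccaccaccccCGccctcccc
The Col3a1 window holds 0 CG dinucleotides and 35.2% G and C bases. Col1a2 has 11 and 62.0%, Col19a1 has 10 and 52.0%, and Col23a1 has 18 and 66.0%. A window of this length without any CG was found in 7.87% of 32851 annotated starts, and among the 35 collagen genes matched by symbol in 3 (8.57%), which were Col3a1, Col9a1 and Col28a1. Of those, Col3a1 fell, and Col9a1 and Col28a1 did not pass, at log2 fold changes of -0.15 ± 0.28 and 0.61 ± 0.33. The median window held 10 CG among collagen genes and 6 among all starts. Only the first listed start was used for each collagen gene, while every annotated start was counted for the whole annotation. The shares and medians are thus per gene on one side and per start on the other.

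No type IV gene passed in aged against young hypothalamus: of 6, 0 passed in edgeR, DESeq2, limma-voom and limma on log2(FPKM + 1), and 1, Col4a4, had an unadjusted p under 0.05. Col4a1 and Col4a2 form the common trimer of capillary basement membranes, and Col4a2 was the most abundant collagen gene per length, at 25.3 ± 1.04 FPKM in aged and 21.2 ± 5.08 FPKM in young libraries (reads scaled to gene length and library total; SD, n = 3 each). Its normalised level was 169, 153 and 163 CPM in aged libraries and 157, 101 and 156 CPM in young libraries. Col4a1 stood at 81.8, 79.3 and 80.1 CPM in aged libraries and at 79.4, 57.2 and 77.99 CPM in young libraries. In both genes 5 libraries were close together and young replicate 2 was lower. The log2 fold changes of 0.17 ± 0.11 for Col4a1 and 0.23 ± 0.14 for Col4a2 became 0.04 and 0.05 without that library.

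Col4a3 and Col4a4 pair with Col4a5 in the basement membranes of kidney, ear and eye, and were scarce here. Col4a4 had 2.97, 3.84 and 2.83 CPM in aged libraries, against 1.70, 1.55 and 2.28 CPM in young libraries, with no overlap. Its log2 fold change of 0.80 ± 0.22 fell short of the threshold (edgeR adjusted p = 0.058, and 0.0537 to 0.151 over the alternatives). Col4a3 was at 1.57, 2.70 and 1.90 CPM in aged and 1.47, 1.72 and 2.06 CPM in young libraries, with overlap and a log2 fold change of 0.24 ± 0.26. The X-linked chains Col4a5 and Col4a6 had log2 fold changes of -0.13 ± 0.15 and 0.23 ± 0.24. Col4a5 read 6.67, 5.97 and 8.02 CPM in aged libraries and 8.62, 6.89 and 7.01 CPM in young libraries, fully interleaved. Beside these values, of 12 endothelial markers Cldn5, Tek, Kdr and Ocln fell, 0 rose and 8 did not pass in edgeR (33.3% passed, beside 6.86% of all tested genes; 0 rose in DESeq2 and limma-voom; 1 had an unadjusted p under 0.05 upward), and the summed level was 240 to 284 CPM in aged and 278 to 335 CPM in young libraries.

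Among the 27 genes of other types, 26 were tested, and Col19a1 and Col23a1 rose in edgeR. The share that rose was 7.69% of 26 genes, beside 3.22% of all tested genes, and 0 fell. Col19a1 encodes a fibril-associated collagen that interneurons secrete and that has been tied to synapse formation in mouse brain. It stood at 15.8, 21.03 and 20.4 CPM in aged libraries, against 12.2, 12.8 and 13.96 CPM in young libraries. The lowest aged library, replicate 1, was still above every young library. The log2 fold change was 0.56 ± 0.12 (SE, edgeR adjusted p = 0.0289). Col19a1 kept its direction in 18 of 18 alternatives and passed in 12; over these its adjusted p ran from 0.00437 to 0.110, and it did not pass without aged replicate 3 (0.110) or without young replicates 1, 2 or 3 (0.0919, 0.0676 and 0.0594).

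Col23a1 encodes a transmembrane collagen whose ectodomain can be shed. It had 28.2, 37.9 and 32.1 CPM in aged libraries, against 14.7, 24.9 and 20.1 CPM in young libraries. Every aged library was higher than every young library, and the gap between the nearest, aged replicate 1 and young replicate 2, was small beside the range within each group. The log2 fold change was 0.72 ± 0.17 (SE, edgeR adjusted p = 0.0392). It passed in 10 of 18 alternatives (adjusted p of 0.000511 to 0.110), and 5 of the 6 analyses without a single library lost it, the exception being the one without young replicate 2 (adjusted p = 0.0259; the others 0.0639 to 0.110). Tanycytes, the glia that line the third ventricle, have been described to express Col23a1. Of 10 tanycyte markers, all tested, Gpr50 and Rax rose, 0 fell and 8 did not pass (2 of 10 passed, beside 6.86% of all tested genes; 0 fell in DESeq2 and limma-voom; 1 had an unadjusted p under 0.05 downward). Their summed level was 155, 134 and 162 CPM in aged and 94.1, 146 and 111 CPM in young libraries. Among young libraries both the markers and Col23a1 were lowest in replicate 1 and highest in replicate 2, whereas among aged libraries the markers were lowest and Col23a1 highest in replicate 2. The part of tanycytes in the Col23a1 result was not tested.

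Type VI collagen makes beaded filaments around cells and is assembled from Col6a1, Col6a2 and a longer partner chain. Of its 6 genes with Col7a1, the anchoring fibril collagen, and Col28a1, a related chain, 8 of 8 had a positive log2 fold change and 0 passed in edgeR, DESeq2 and limma-voom. An unadjusted p under 0.05 was reached in edgeR by 5 of the 8 (Col6a1, Col6a2, Col6a3, Col6a4 and Col7a1), in DESeq2 by 4 and in limma-voom by 3, beside 26.2% of all tested genes in edgeR. Young replicate 2 was the lowest library for 7 of the 8 and aged replicate 1 the highest for 5, so the 8 signs are not separate observations. The median log2 fold change of the 8 was 0.42, and 0.31 without young replicate 2 and without aged replicate 1, with 8 of 8 positive each time. Col6a1 was at 74.2, 23.99 and 32.2 CPM in aged libraries and at 15.7, 31.5 and 21.5 CPM in young libraries. Aged replicate 1 stood far above the other libraries, which overlapped. The log2 fold change of 0.92 ± 0.39 (edgeR adjusted p = 0.166) became 0.30 without aged replicate 1.

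Col6a2 was at 21.7, 14.7 and 17.3 CPM in aged and 14.2, 12.9 and 13.9 CPM in young libraries, and Col6a3 at 19.4, 16.7 and 16.6 CPM in aged and 15.6, 11.1 and 13.7 CPM in young libraries. Neither pair of groups overlapped, and the log2 fold changes were 0.39 ± 0.14 and 0.38 ± 0.13 (edgeR adjusted p = 0.108 and 0.0979). Col6a2 passed in 1 alternative, without aged replicate 2 (adjusted p = 0.0274). Col6a4 (0.76 ± 0.33) again had its highest level in aged replicate 1, at 14.1 CPM against 4.02 to 7.56 CPM in the 5 others, and it passed with the replicate number as a block (adjusted p = 0.0228). Col6a5 and Col6a6 stood at 0.20 ± 0.18 and 0.31 ± 0.25, Col7a1 at 0.45 ± 0.18 and Col28a1 at 0.61 ± 0.33 on the log2 scale. Without young replicate 2 these 4 were at 0.03, 0.11, 0.25 and 0.40, and without aged replicate 1 Col6a2 was at 0.23, Col6a4 at 0.31 and Col6a5 at 0.12. Col6a4, Col6a5 and Col6a6 are related copies on chromosome 9, and reads shared between them may have been divided or dropped in counting.

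The remaining fibril-associated genes, which sit on fibril surfaces, did not pass. Col16a1 was the most abundant of them per length and stood at 85.4, 72.6 and 71.9 CPM in aged libraries and at 70.4, 42.6 and 66.3 CPM in young libraries. The aged libraries lay above the young ones, but by little once young replicate 2 is set aside, and the log2 fold change of 0.36 ± 0.16 (edgeR adjusted p = 0.193) was 0.17 without it. Col9a2, a chain of cartilage-type type IX collagen, was at 26.7, 26.2 and 24.8 CPM in aged and 24.6, 18.4 and 22.03 CPM in young libraries (log2 fold change 0.26 ± 0.11, edgeR adjusted p = 0.163). Col9a3 had a log2 fold change of 0.37 ± 0.14 and also no overlap, while Col9a1 had -0.15 ± 0.28. The others were Col12a1 (-0.17 ± 0.18), Col14a1 (-0.07 ± 0.20), Col20a1 (-0.18 ± 0.15) and Col22a1 (0.41 ± 0.19). Without young replicate 2, Col9a2 was at 0.16, Col12a1 at 0.09 and Col14a1 at -0.17.

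Both multiplexins, whose C-terminal pieces are known for limiting vessel growth, missed the threshold in opposite directions. Col18a1, the source of endostatin, was at 27.4, 26.9 and 29.5 CPM in aged and 24.5, 18.6 and 22.9 CPM in young libraries, without overlap (log2 fold change 0.35 ± 0.10, edgeR adjusted p = 0.0757). Col15a1 was at 17.7, 14.7 and 16.7 CPM in aged and 25.03, 17.4 and 23.8 CPM in young libraries (-0.43 ± 0.14, edgeR adjusted p = 0.0865). Without young replicate 2, the one young library that overlapped the aged range, Col15a1 passed at -0.57 (adjusted p = 0.0278), and it passed with the replicate block too (adjusted p = 0.0376).

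Col25a1, a transmembrane collagen of neurons whose shed fragment is found in amyloid plaques, was the second most abundant collagen gene per length. Its level was 126, 125 and 125 CPM in aged libraries and 121, 139 and 115 CPM in young libraries, with means of 15.5 ± 0.139 and 15.2 ± 1.33 FPKM (SD, n = 3 each). The log2 fold change of 0.00 ± 0.07 had the smallest standard error of the 43 genes, so the difference is bounded more tightly here than for any other tested member; it was 0.09 without young replicate 2. Col13a1 (-0.35 ± 0.25) and Col17a1 (-0.83 ± 0.39), transmembrane collagens of muscle synapses and skin, were near the limit of detection at 0.953 and 0.353 CPM in aged and 1.22 and 0.628 CPM in young libraries on average. Of the network-forming chains, Col8a1 (-0.42 ± 0.22, and -0.25 without young replicate 2) and Col8a2 (-0.39 ± 0.17) did not pass, and Col10a1 was not tested, with 1 to 5 reads in aged and 3 to 8 reads in young libraries. For Col8a2 every aged library (3.92 to 4.52 CPM) lay below every young library (4.83 to 6.73 CPM). The same held for Col17a1 (0.260 to 0.519 CPM in aged and 0.575 to 0.723 CPM in young libraries). Col26a1 was at -0.51 ± 0.18 (edgeR adjusted p = 0.114) and passed with the replicate block (adjusted p = 0.0433). Summed over all 27 genes, the level was 560, 474 and 486 CPM in aged libraries and 441, 415 and 434 CPM in young libraries. Without aged replicate 1 the log2 ratio of the means was 0.16, against 0.24 with it.

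**Figure D3:**
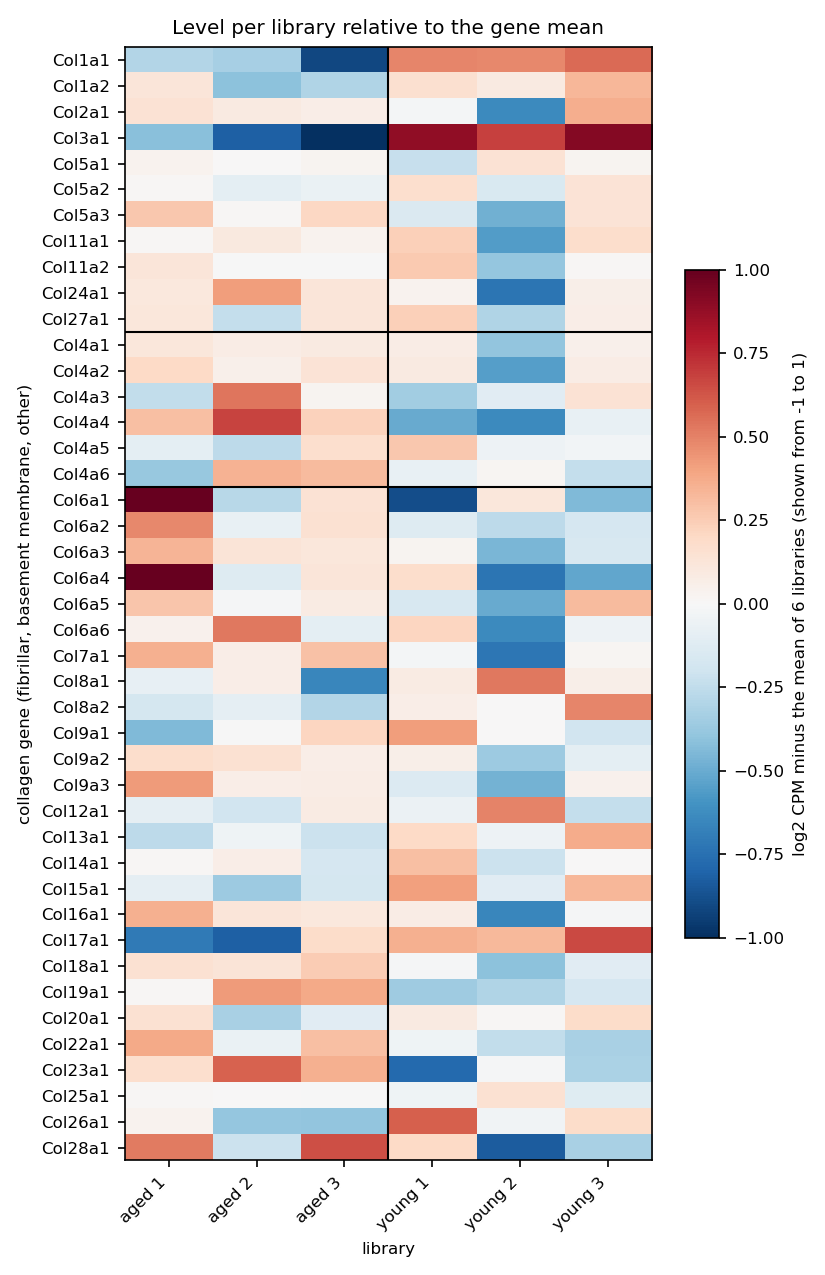
Level of the 43 tested collagen genes (rows, in the order fibrillar, basement membrane, other) in each library (columns, aged then young), as log2 CPM minus the mean over 6 libraries, with colours running from -1 to 1. Young replicate 2 is the lowest library in 22 rows, and aged replicate 1 has the highest Col6a1 and Col6a4; Col1a1 and Col3a1 are low in the 3 aged columns.

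Chains of 1 collagen type were then set against each other within each library, per gene length, for 11 pairs; such ratios do not depend on how libraries are scaled. With 3 libraries a group, the smallest p that the 20 assignments allow is 0.1, so no ratio could pass. Col1a1 stood to Col1a2 as 0.270, 0.378 and 0.235 in aged libraries, against 0.452, 0.472 and 0.421 in young libraries. The aged ratios were below the young ones without overlap, a difference of -0.64 on the log2 scale (two-sided exact permutation p = 0.1, adjusted over 11 ratios 0.55). Col4a3 stood to Col4a4 as 0.625, 0.832 and 0.797 in aged libraries, against 1.02, 1.32 and 1.07 in young libraries. This ratio too was lower in each aged library, by -0.60 on the log2 scale (two-sided exact permutation p = 0.1, adjusted 0.55).

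The remaining 9 ratios overlapped between the ages. Col4a1 to Col4a2 was the steadiest, at 0.471, 0.505 and 0.480 in aged and 0.492, 0.554 and 0.488 in young libraries; young replicate 2, low in both genes, lay slightly above the rest. Col6a1 to Col6a2 was 5.17, 2.46 and 2.82 in aged and 1.68, 3.68 and 2.34 in young libraries, with the highest value in aged replicate 1. Col6a3 to Col6a2 was 0.478 to 0.629 over all 6 libraries and overlapped; Col6a2 and Col6a3 were themselves highest in aged replicate 1. Col9a1 was scarce beside Col9a2, at a ratio of 0.0205 to 0.0407 over all libraries, while Col9a3 to Col9a2 was 0.573 to 0.780.

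**Figure D4:**
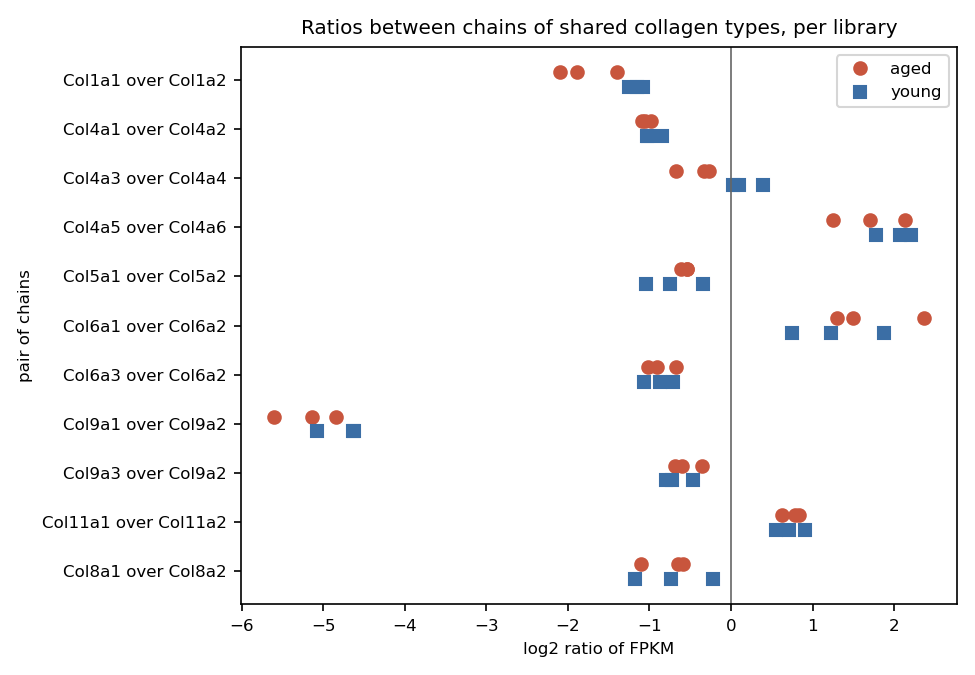
Log2 ratio of FPKM between chains of shared collagen types (x axis) for 11 pairs (y axis), with circles for aged and squares for young libraries. Aged and young points are apart for Col1a1 over Col1a2, with means of -1.79 and -1.16, and for Col4a3 over Col4a4, with means of -0.42 and 0.17; they overlap in the other 9 pairs.

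Several members are next to each other in the genome, with no other protein-coding gene between them in the RefSeq annotation. Col3a1, which fell, neighbours Col5a2, which did not pass (log2 fold changes -1.61 and -0.11). Col19a1, which rose, neighbours Col9a1, at 0.56 and -0.15. Col4a1 and Col4a2 have annotated starts 21 bases apart on opposite strands and had log2 fold changes of 0.17 and 0.23. The other neighbours were Col4a4 with Col4a3 (0.80 and 0.24), Col6a2 with Col6a1 (0.39 and 0.92), Col4a6 with Col4a5 (0.23 and -0.13), and the run of Col6a6, Col6a5 and Col6a4 (0.31, 0.20 and 0.76). Of the genes that passed, only Col3a1 and Col19a1 had a neighbouring collagen gene, and neither neighbour passed. With 6.86% of all tested genes passing, so few neighbours carry little information.

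Among the genes that build collagen, 32 were listed and 29 tested. In edgeR 2 rose, 0 fell and 27 did not pass, a share of 6.90%, beside 6.86% of all tested genes. In DESeq2 and limma-voom 2 rose, while 2 and 0 fell. An unadjusted p under 0.05 downward was reached by 5 in edgeR. Both that rose are catalytic subunits of prolyl 4-hydroxylase, which hydroxylates proline so that the triple helix is stable at body temperature. P4ha2 was at 41.8, 27.8 and 40.6 CPM in aged libraries, against 18.1, 21.8 and 22.7 CPM in young libraries (log2 fold change 0.81 ± 0.15, edgeR adjusted p = 0.0187). P4ha1 was at 63.7, 48.7 and 72.4 CPM in aged libraries, against 35.8, 42.1 and 40.5 CPM in young libraries (0.64 ± 0.13, edgeR adjusted p = 0.0247). Aged replicate 2 was the lowest aged library for both and still above the young libraries. The median log2 fold change of the 29 genes was 0.06, and the third subunit gene, P4ha3, was at -0.50 ± 0.13 without passing (edgeR adjusted p = 0.0533).

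Of 11 tested proteases and inhibitors of collagen breakdown, Mmp14, a membrane collagenase, fell and 10 did not pass in edgeR (9.09%, near the 6.86% of all tested genes). In edgeR, DESeq2 and limma-voom 0 of them rose, with 0 at an unadjusted p under 0.05 upward. DESeq2 had 2 lower, and 5 had an unadjusted p under 0.05 downward in edgeR. Mmp14 was at 20.7, 22.1 and 19.8 CPM in aged libraries, against 42.4, 39.4 and 39.6 CPM in young libraries (log2 fold change -0.95 ± 0.08, edgeR adjusted p = 0.000503), with no overlap. Of 10 tested collagen receptors, 1 fell and 9 did not pass in edgeR (10%, near the 6.86% of all tested genes). In edgeR, DESeq2 and limma-voom 0 receptors rose, with 0 at an unadjusted p under 0.05 upward. The receptor that fell was Ddr2, a receptor tyrosine kinase activated by fibrillar collagen. Its level was 4.82, 4.62 and 5.13 CPM in aged libraries, against 6.04, 9.82 and 8.01 CPM in young libraries (-0.71 ± 0.18, edgeR adjusted p = 0.0464); in limma-voom and on log2(FPKM + 1) 0 of the 10 receptors fell past the threshold.

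Fibril-binding proteins moved in both directions: of 9 tested, 1 rose, 2 fell and 6 did not pass (33.3%, beside 6.86% of all tested genes, over few genes). Tnxb, a tenascin that links collagen fibrils, was at 25.7, 34.5 and 28.6 CPM in aged libraries, against 12.95, 12.1 and 16.7 CPM in young libraries (1.09 ± 0.14, edgeR adjusted p = 0.00531). Bgn, the proteoglycan biglycan, was at 8.97, 8.10 and 7.21 CPM in aged libraries, against 12.4, 12.1 and 12.1 CPM in young libraries (-0.59 ± 0.11, edgeR adjusted p = 0.0186), and Prelp fell by 0.38. Of 15 other basement membrane genes (laminins, nidogens and others), Nid1, which bridges laminin and type IV collagen, fell and 14 did not pass (6.67%, beside 6.86% of all tested genes). In edgeR, DESeq2 and limma-voom 0 of the 15 rose, with 1 at an unadjusted p under 0.05 upward. Nid1 was at 7.85, 8.83 and 7.67 CPM in aged libraries, against 16.3, 11.7 and 14.2 CPM in young libraries (-0.79 ± 0.14, edgeR adjusted p = 0.0147).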

How the data were processed

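Hypothalamus RNA of 3 aged and 3 young mice was isolated with a mirVana kit and prepared as stranded mRNA libraries (TruSeq), per the labels' protocols. The deposited counts are whole reads per gene, with no normalization by the authors, and the deposited FPKM equal these counts over gene length and library total for 18228 of 18228 genes (relative tolerance 1e-05). The submitters' processing notes list Trimmomatic, HISAT2, Cufflinks, HTSeq, DESeq and build GRCm39. The sources used here do not give the annotation release, the strand setting or the treatment of shared reads.

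Counts were tested with edgeR 4.0.16 (R 4.3.3; quasi-likelihood, TMM scaling, filterByExpr with minimum count 10 and total 15, which kept 14702 genes). P-values were adjusted by Benjamini-Hochberg over all of them, at a threshold of 0.05; levels are TMM-normalised CPM. Ratios of FPKM were compared by exact permutation. Alternatives were other scalings, filters, DESeq2 1.42.0, limma 3.58.1 (voom, and log2 FPKM with a pseudocount of 1 or 0.1), robust estimation, the replicate block, gene length and sex-linked genes removed, and each library left out. The fit was tested on simulated data. The members and lists were chosen with earlier results of these data known. Values per library are given for collagen genes that passed, for the 3 most abundant per length in each class and for chains of the ratios described; of the related lists, genes that passed are named. Further values were chosen after they were seen. Each library was counted as its own sample, as the labels list it. Libraries of 1 group differed beyond counting noise (chi-square over degrees of freedom, 3.91 to 11.6), so none was a copy of another. That check cannot tell separate mice from separate preparations of the same RNA.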

Additional observations from a re-analysis of the deposited data

How the results depend on the processing

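Col1a1 and Col3a1 passed in all 18 alternatives. Collagen genes higher in aged hypothalamus numbered 2 in the analysis as reported, 0 on log2(FPKM + 1) and on log2(FPKM + 0.1), 1 with robust estimation, and 0 to 2 without single libraries; all belonged to the other types, whose counts were the same. On the log2 FPKM scales Col19a1 had adjusted p of 0.062 and 0.0674 and Col23a1 of 0.0516 and 0.0516, and with robust estimation Col23a1 had 0.0523; the cause was not tested. With the replicate number as a block, collagen genes lower in aged hypothalamus numbered 4 and those of other types 2 (Col15a1 and Col26a1), against 2 and 0 without it, and 3 were higher (Col6a4 added). The deviations of same-numbered libraries from their group means correlated at 0.10, 0.04 and -0.16. The labels give no pairing, and so few libraries cannot decide whether the numbers pair the mice. Without single libraries the other types had 0 or 1 lower gene. Over all genes, 293, 303 and 356 were lower on log2(FPKM + 1), on log2(FPKM + 0.1) and with the gene length trend removed, against 535 as reported; without single libraries 95 to 901 were higher and 55 to 732 lower.

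Col27a1, at -0.01, turned to 0.0166 with total counts only, 0.0156 and 0.0255 on the FPKM scales and 0.0502 with the length trend removed. Without single libraries the sign changed for genes near 0 that did not pass: Col27a1 (-0.14 to 0.12), Col11a1 (-0.15 to 0.20), Col11a2 (-0.0961 to 0.22), Col12a1 (-0.30 to 0.087), Col14a1 (-0.17 to 0.0844), Col25a1 (-0.0444 to 0.091), Col2a1 (-0.0799 to 0.41), Col4a3 (-0.00344 to 0.41), Col5a1 (-0.0536 to 0.12) and Col9a1 (-0.29 to 0.0455). It also changed for the log2 ratios of Col11a1 to Col11a2, Col5a1 to Col5a2, Col6a3 to Col6a2 and Col8a1 to Col8a2, whose ranges were -0.0572 to 0.11, -0.0196 to 0.33, -0.0787 to 0.10 and -0.31 to 0.17. Collagen genes are long (median 6551 bases, against 3693 for all tested genes). Over all tested genes, the median log2 fold change ran from 0.11 in the shortest of 10 length classes to -0.12 in the longest. The collagen median was 0.17 as reported and 0.22 with this length trend removed. Low read numbers limit Col10a1, Col17a1, Col13a1, Col9a1 and Col28a1, which had the fewest reads, and also Col3a1. Read numbers cover the counting error alone. The edgeR p-values weigh the difference between the age groups against the spread between libraries within them.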
